A study of Mus musculus with 77 samples.

Results

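Voltage-gated sodium and calcium channels turn changes of membrane potential into inward currents, and so set how a neuron fires and how much calcium enters it. A sodium channel has a pore-forming α subunit and β subunits that tune it, and a calcium channel has an α1 pore with α2δ and β subunits. The γ group holds subunits of the muscle channel and the transmembrane AMPA receptor regulatory proteins (TARPs), which travel with glutamate receptors. Spiny projection neurons of the striatum fire only when strong input lifts them from a low resting potential, and dopamine is known to tune their sodium and calcium currents.

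The genes described here were chosen by symbol alone: all probe sets whose single annotated symbol was Scn followed by digits and a or b, or began with Cacna, Cacnb or Cacng. This gave 85 probe sets of 35 genes among 18194 genes, of which 11 were sodium channel genes and 24 calcium channel or γ genes. Where a gene had several probe sets, the one of highest mean stood for it. Of the 35 genes, 30 had a mean above the 40th percentile of all probe set means (3.55 on the log2 scale) and were tested with 13271 genes in all. The 5 others were Scn7a, Scn10a, Scn11a, Cacna1f and Cacna1s, whose known sites are mainly glia, sensory neurons, retina and muscle.

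Messenger RNA was measured on 77 Affymetrix arrays, each from a single adult male mouse of 9 to 14 weeks on a C57BL/6J background. Translating ribosome affinity purification (TRAP) pulled down RNA bound to a ribosomal protein fused to green fluorescent protein (EGFP-L10a). The tag was carried as a hemizygous bacterial artificial chromosome transgene, Drd1::EGFP-L10a in direct pathway neurons (dSPN) or Drd2::EGFP-L10a in indirect pathway neurons (iSPN). The toxin 6-hydroxydopamine (6-OHDA, 3.2 µg/µl, 1 µl), which kills dopamine neurons, was injected into the right medial forebrain bundle, and the lesioned side's dorsal striatum was dissected. Mock-lesioned mice received the vehicle, and lesioned mice were kept on the basis of turning and limb use. From 3 weeks after surgery all mice received daily injections for 9 days. Mock-lesioned mice received saline (10 arrays in each line). Lesioned mice received saline (11 dSPN and 7 iSPN arrays), low-dose levodopa (12 and 8) or high-dose levodopa (11 and 8). Levodopa, the precursor of dopamine, was given with 12 mg/kg benserazide, in daily doses of 1 mg/kg up to day 3 and 2 mg/kg from day 4 to day 9 (low), or of 3 mg/kg and 6 mg/kg over the same days (high). According to the study's design text the high regimen was expected to cause severe dyskinesia and the low one to correct limb use with none that is conspicuous.

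The labels of the lines held on every array. Drd1, the dopamine receptor of the direct pathway, lay between 11.11 and 11.93 on dSPN arrays and between 8.68 and 10.54 on iSPN arrays. Drd2 lay between 5.14 and 8.08 on dSPN arrays and between 11.90 and 12.73 on iSPN arrays. Array medians ranged from 4.31 to 4.42, and the median correlation of each array to the other arrays of its group from 0.939 to 0.9796. The numbers in the sample titles fell into 7 runs of rising animal number, and the sources used here do not say what a run stands for. Each run lies within a line, so that line and run cannot be told apart. As each mouse gave 1 array of RNA from all tagged cells, fewer cells of a type and less RNA per cell cannot be told apart.

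All values are log2 expression, changes are differences of group means, each with its standard error (SE) from the model, and the threshold for a call was an adjusted p of 0.05 over all 13271 genes. Levels of different genes are read by different probes and are not compared. The high-dose and low-dose comparisons of a line share the lesioned saline arrays with each other and with the lesion comparison.

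The largest set of called channel genes was found in dSPN with high-dose levodopa. Against lesion with saline, 15 of 30 genes were called, 6 higher and 9 lower, beside 45.6% of all genes tested (20.1% higher and 25.5% lower). The share of channel genes called was thus near that of all genes. By role, 2 of 5 sodium α genes, 2 of 3 sodium β genes and 4 of 7 calcium α1 genes fell and none of these rose. In the other direction, 1 of 4 α2δ genes, 2 of 3 β genes and 3 of 8 γ genes rose, and 1 γ gene, Cacng5, fell. The median change of the 30 genes was -0.02, against -0.04 over all genes.

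**Figure D1:**
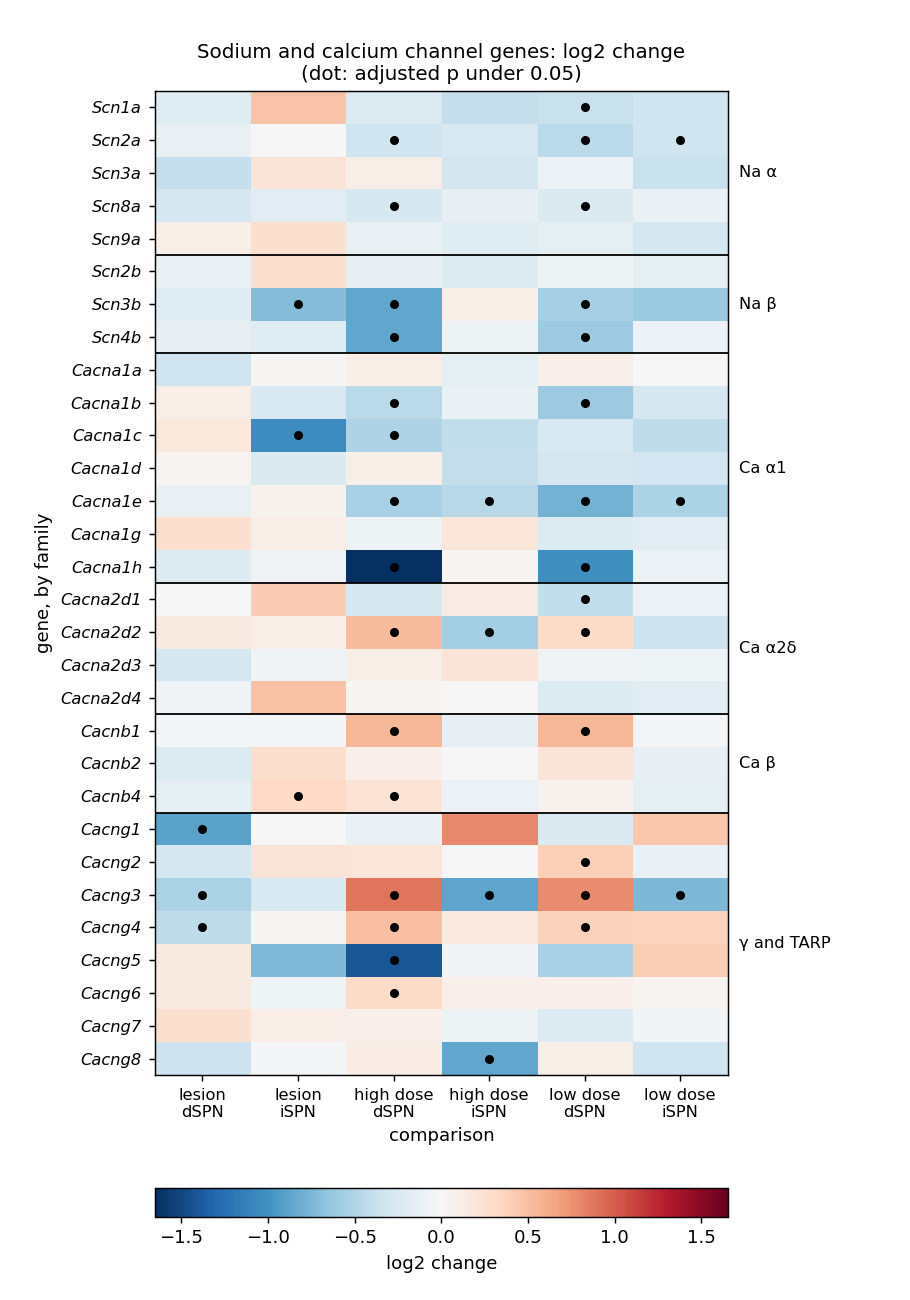
Log2 change of the 30 channel genes tested (rows, by family) in 6 comparisons (columns: lesion against mock, and each levodopa dose against lesion with saline, in dSPN and iSPN). Blue is lower and red is higher, and a dot marks an adjusted p under 0.05; the high-dose dSPN column holds 15 dots and the low-dose dSPN column 14, against 3 or 4 in each of the other 4 columns.

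Among the sodium channel genes, Scn4b showed the smallest adjusted p of the family. It encodes the β subunit known for its part in resurgent current, and is a well-known striatal transcript. The dSPN arrays of Scn4b ranged from 12.22 to 12.50 (median 12.34) after mock lesion, from 11.97 to 12.43 (12.25) after lesion with saline, from 11.15 to 12.02 (11.65) with the low dose and from 10.96 to 11.60 (11.42) with the high dose. Every high-dose dSPN array lay below every lesioned saline and every mock dSPN array, while the low-dose range met that of the lesioned saline arrays. With the high dose Scn4b fell by 0.86 on the log2 scale, that is 1.81-fold (SE 0.07, adjusted p = 8.85e-19). With the low dose it fell by 0.60 (SE 0.06, adjusted p = 2.31e-12). On iSPN arrays Scn4b lay between 12.50 and 12.80 (median 12.61) with mock lesion, 12.19 and 12.55 (12.46) with lesion and saline, 12.18 and 12.47 (12.31) at the low dose and 12.20 and 12.48 (12.31) at the high dose. Both iSPN dose ranges lay below the mock range and overlapped that of the lesioned saline arrays. Against lesion with saline the iSPN changes were -0.09 (SE 0.08, adjusted p = 0.557) with the high dose and -0.09 (SE 0.08, adjusted p = 0.602) with the low dose.

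Scn3b, another sodium channel β subunit gene, was lower with levodopa in dSPN and lower after the lesion in iSPN. In dSPN the log2 values of Scn3b were 7.89 to 9.13 (median 8.40) for mock, 7.40 to 8.77 (8.15) for lesion with saline, 6.96 to 8.31 (7.66) for the low dose and 6.69 to 7.82 (7.44) for the high dose. The groups overlapped except that all high-dose arrays lay below all mock arrays. The change in dSPN was -0.86 (SE 0.19, adjusted p = 9.84e-05) with the high dose and -0.55 (SE 0.18, adjusted p = 0.0152) with the low dose. Values of Scn3b in iSPN ran from 8.14 to 8.93 (median 8.32) in mock-lesioned mice, 7.50 to 7.96 (7.76) in lesioned saline mice, 5.57 to 8.39 (7.12) in low-dose mice and 7.28 to 8.56 (7.78) in high-dose mice. All 7 lesioned saline iSPN arrays lay below all 10 mock iSPN arrays, and the lesion change was -0.71 (SE 0.22, adjusted p = 0.0321). The widest spread was in the low-dose iSPN arrays (SD 0.81), and the iSPN dose changes were -0.62 (SE 0.23, adjusted p = 0.112) and, with the high dose, 0.11 (SE 0.23, adjusted p = 0.843). Scn2b, the third sodium channel β gene tested here, was not called in any of these comparisons. Its representative probe set changed by -0.13 (SE 0.17, adjusted p = 0.544) with the high dose in dSPN, while its 2 other probe sets fell by 0.38 and 0.49 and were called there.

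Of the pore-forming sodium channel genes, Scn2a and Scn8a encode the main channels of the axon initial segment. For Scn2a the dSPN arrays spanned 10.03 to 10.72 (median 10.24) after mock lesion, 9.95 to 10.26 (10.15) after lesion, 9.43 to 9.91 (9.72) after the low dose and 9.51 to 10.21 (9.81) after the high dose. All low-dose arrays lay below all lesioned saline arrays, and the high-dose range reached into them. Scn2a changed by -0.33 (SE 0.08, adjusted p = 0.000776) with the high dose and -0.45 (SE 0.08, adjusted p = 6.7e-06) with the low dose. The iSPN arrays of Scn2a ranged from 9.52 to 10.16 (median 9.89) after mock lesion, from 9.54 to 10.14 (9.95) after lesion with saline, from 9.28 to 10.03 (9.49) with the low dose and from 9.21 to 9.92 (9.71) with the high dose. In iSPN the low-dose change passed the test, at -0.33 (SE 0.10, adjusted p = 0.0426), and the high-dose change was -0.25 (SE 0.10, adjusted p = 0.105). The difference between the lines in these dose effects was -0.12 (SE 0.13, adjusted p = 0.616) for the low dose and -0.08 (SE 0.13, adjusted p = 0.720) for the high dose.

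Scn8a was lower in dSPN with both doses, with a change of -0.26 (SE 0.09, adjusted p = 0.00811) for the high dose and -0.23 (SE 0.08, adjusted p = 0.0233) for the low dose. Its 3 other probe sets also changed downwards with the high dose, by 0.36, 0.53 and 0.22, and the first 2 of these were called. Scn1a, the sodium channel best known from fast-spiking interneurons, passed the test in dSPN with the low dose, at -0.37 (SE 0.14, adjusted p = 0.0307), and not with the high dose, at -0.23 (SE 0.14, adjusted p = 0.187). The difference between the doses for Scn1a was 0.14 (SE 0.14, adjusted p = 0.629). Neither Scn3a, known from developing neurons, nor Scn9a, known from sensory neurons, was called for lesion or levodopa in either line.

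**Figure D2:**
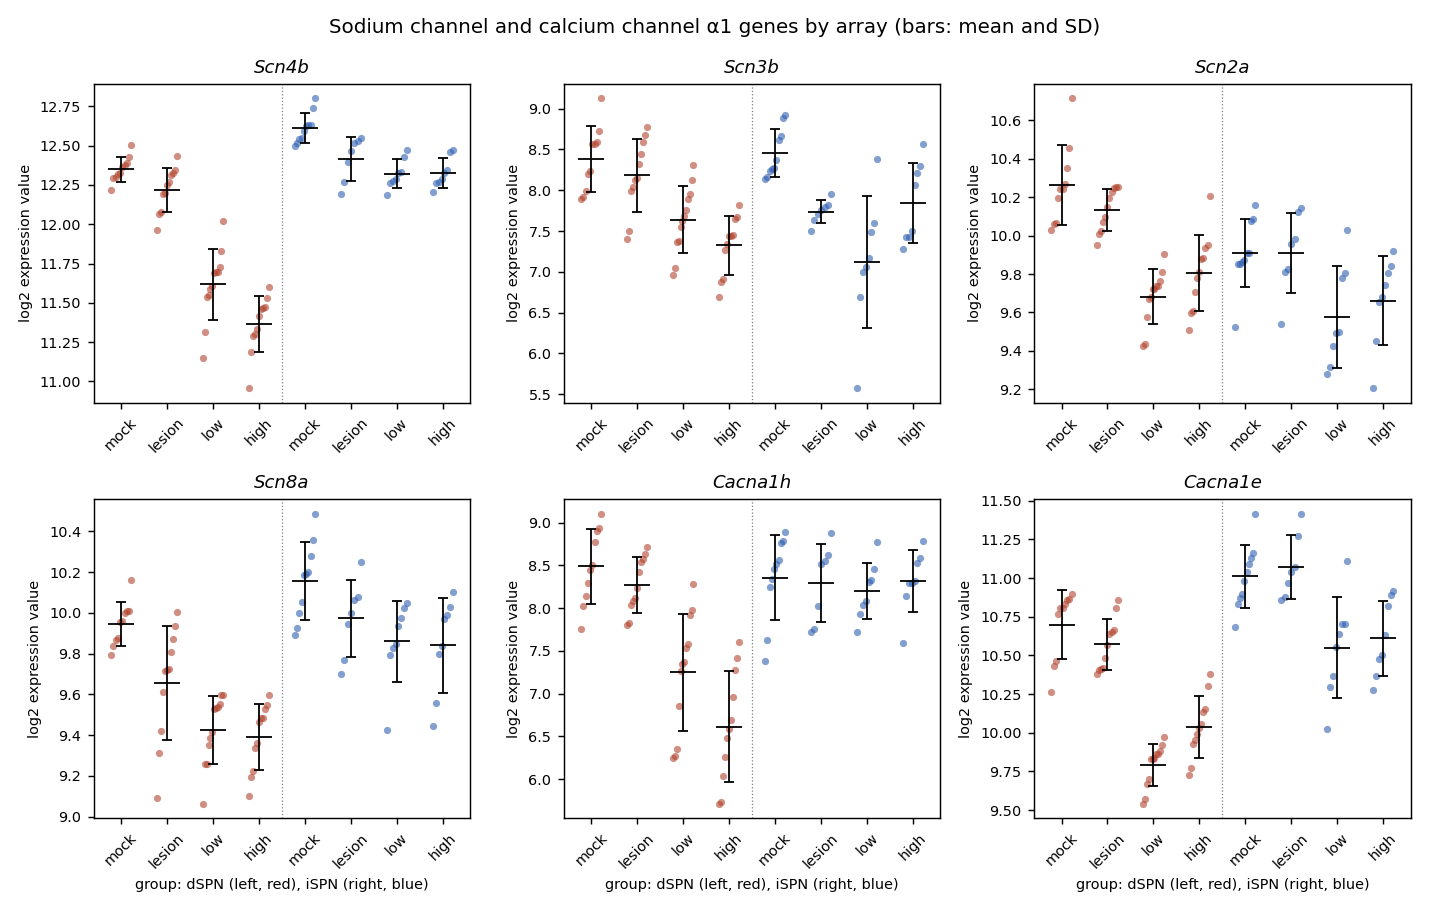
Log2 expression value (y axis) of 4 sodium channel genes and 2 calcium channel α1 genes on every array by group (x axis: mock with saline, lesion with saline, low dose, high dose; dSPN red, iSPN blue). Points are arrays, and bars give the mean and SD; Scn4b in dSPN falls from a mean of 12.22 (lesion) to 11.36 (high dose), and Cacna1h from 8.27 to 6.62.

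Cacna1h gave the largest change of any channel gene. It encodes a T-type calcium channel pore, which opens at low voltage and is linked to rebound and burst firing. On dSPN arrays Cacna1h lay between 7.75 and 9.10 (median 8.48) with mock lesion, 7.80 and 8.71 (8.23) with lesion and saline, 6.24 and 8.28 (7.36) at the low dose and 5.71 and 7.61 (6.58) at the high dose. All 11 high-dose arrays lay below all lesioned saline arrays, and the low-dose range spanned 6.24 to 8.28 and overlapped both. Cacna1h fell by 1.65, that is 3.15-fold (SE 0.21, adjusted p = 4.73e-10), with the high dose. With the low dose it fell by 1.02 (SE 0.21, adjusted p = 4.72e-05). In iSPN the log2 values of Cacna1h were 7.38 to 8.89 (median 8.49) for mock, 7.72 to 8.88 (8.51) for lesion with saline, 7.72 to 8.77 (8.19) for the low dose and 7.59 to 8.78 (8.31) for the high dose. The iSPN groups overlapped, with a change of 0.02 (SE 0.26, adjusted p = 0.976) with the high dose and -0.09 (SE 0.26, adjusted p = 0.908) with the low dose. Cacna1g, another T-type pore gene, had a mean of 3.58, just above the filter, and was not called in these comparisons.

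Cacna1e, the pore of R-type channels, fell with both doses in both lines by its representative probe set. With its second probe set the high-dose change in iSPN was not called. Values of Cacna1e in dSPN ran from 10.26 to 10.90 (median 10.80) in mock-lesioned mice, 10.38 to 10.86 (10.57) in lesioned saline mice, 9.54 to 9.97 (9.84) in low-dose mice and 9.73 to 10.38 (10.03) in high-dose mice. All dSPN arrays with the high dose and all with the low dose lay below all lesioned saline dSPN arrays. The dSPN changes were -0.53 (SE 0.09, adjusted p = 1.36e-06) with the high dose and -0.78 (SE 0.09, adjusted p = 4.78e-11) with the low dose. For Cacna1e the iSPN arrays spanned 10.68 to 11.42 (median 11.01) after mock lesion, 10.86 to 11.41 (11.04) after lesion, 10.03 to 11.11 (10.60) after the low dose and 10.28 to 10.91 (10.57) after the high dose. The iSPN groups overlapped, and the changes were -0.46 (SE 0.11, adjusted p = 0.00327) and -0.52 (SE 0.11, adjusted p = 0.00185). The line difference in the effect was -0.07 (SE 0.14, adjusted p = 0.774) for the high dose and -0.26 (SE 0.14, adjusted p = 0.245) for the low dose, so that no difference between the lines was called.

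Cacna1b encodes the pore of N-type channels, which trigger transmitter release. The dSPN arrays of Cacna1b ranged from 8.87 to 9.57 (median 9.25) after mock lesion, from 8.95 to 9.59 (9.34) after lesion with saline, from 8.31 to 9.08 (8.76) with the low dose and from 8.26 to 9.18 (8.91) with the high dose. The ranges overlapped, with a change of -0.45 (SE 0.11, adjusted p = 0.000376) for the high dose and -0.61 (SE 0.11, adjusted p = 3.76e-06) for the low dose. On iSPN arrays Cacna1b lay between 9.17 and 10.14 (median 9.63) with mock lesion, 9.02 and 9.97 (9.25) with lesion and saline, 8.70 and 9.44 (9.08) at the low dose and 9.11 and 9.47 (9.25) at the high dose. In iSPN neither dose was called. Of its other probe sets, 1 fell by 0.52 with the high dose in dSPN and was called, and 2 changed by -0.26 and 0.03 and were not.

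Cacna1c encodes the main L-type pore, a known route from calcium entry to gene expression. In dSPN the log2 values of Cacna1c were 7.19 to 8.41 (median 8.03) for mock, 7.42 to 8.64 (8.21) for lesion with saline, 7.41 to 8.66 (7.87) for the low dose and 6.28 to 8.36 (7.74) for the high dose. The high-dose change was -0.52 (SE 0.20, adjusted p = 0.0305), with overlapping groups, and the low-dose change was -0.25 (SE 0.20, adjusted p = 0.346). Values of Cacna1c in iSPN ran from 8.03 to 9.85 (median 8.65) in mock-lesioned mice, 6.25 to 8.55 (7.92) in lesioned saline mice, 6.39 to 7.77 (7.52) in low-dose mice and 6.91 to 7.60 (7.52) in high-dose mice. The median was highest in mock-lesioned iSPN arrays, and the lesion change in iSPN was -1.04 (SE 0.23, adjusted p = 0.00168). The gene's other probe set changed by -0.26 with the lesion in iSPN, which was not called, and fell by 0.79 with the high dose in dSPN, which was. Cacna1d, the second L-type gene, and Cacna1a, the P/Q-type pore, were not called for lesion or levodopa in either line.

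The accessory subunits moved in both directions. Cacna2d2, an α2δ subunit that carries pores to the membrane, was higher with levodopa in dSPN and lower in iSPN. For Cacna2d2 the dSPN arrays spanned 10.97 to 11.90 (median 11.44) after mock lesion, 11.08 to 12.01 (11.56) after lesion, 11.56 to 12.41 (11.85) after the low dose and 11.90 to 12.53 (12.06) after the high dose. Its dSPN changes were 0.53 (SE 0.13, adjusted p = 0.000333) with the high dose and 0.31 (SE 0.12, adjusted p = 0.0452) with the low dose, with overlapping groups. The iSPN arrays of Cacna2d2 ranged from 11.32 to 12.56 (median 12.13) after mock lesion, from 11.78 to 12.45 (12.14) after lesion with saline, from 11.33 to 12.21 (11.80) with the low dose and from 10.93 to 12.09 (11.64) with the high dose. The iSPN changes were -0.56 (SE 0.15, adjusted p = 0.0100) and -0.35 (SE 0.15, adjusted p = 0.203). The second probe set of the gene went the other way in dSPN, by -0.31 with the high dose (adjusted p = 0.185) and -0.48 with the low dose (adjusted p = 0.0399), so the direction in dSPN depends on the probe set. Cacna2d1, the α2δ subunit that binds gabapentin, was called with the low dose in dSPN at -0.41 (SE 0.14, adjusted p = 0.0185). There a further probe set of Cacna2d1 changed by 0.81 in the opposite direction (adjusted p = 0.0248). Cacna2d3 and Cacna2d4 were not called for lesion or levodopa in either line.

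Cacnb1 encodes a β subunit, which binds the pore inside the cell and aids its delivery. On dSPN arrays Cacnb1 lay between 9.93 and 10.46 (median 10.29) with mock lesion, 9.92 and 10.48 (10.21) with lesion and saline, 10.26 and 11.11 (10.84) at the low dose and 10.44 and 11.13 (10.75) at the high dose. The high-dose and low-dose arrays lay mostly above the lesioned saline arrays, with ranges that met. Cacnb1 rose by 0.54 (SE 0.09, adjusted p = 1.04e-06) with the high dose and 0.55 (SE 0.09, adjusted p = 8.58e-07) with the low dose. All 3 further probe sets of Cacnb1 rose too with the high dose, by 0.74, 0.75 and 0.84, and were called. In iSPN the log2 values of Cacnb1 were 9.86 to 10.54 (median 10.25) for mock, 9.80 to 10.88 (10.16) for lesion with saline, 10.01 to 10.49 (10.11) for the low dose and 9.78 to 10.27 (10.12) for the high dose. No dose was called in iSPN, at -0.13 (SE 0.11, adjusted p = 0.529) with the high dose and -0.04 (SE 0.11, adjusted p = 0.912) with the low dose.

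Cacnb4, the β subunit of many central synapses, moved by small amounts on closely grouped arrays. Values of Cacnb4 in dSPN ran from 10.87 to 11.18 (median 11.06) in mock-lesioned mice, 10.76 to 11.01 (10.94) in lesioned saline mice, 10.62 to 11.12 (10.96) in low-dose mice and 10.95 to 11.24 (11.14) in high-dose mice. The high-dose change in dSPN was 0.23 (SE 0.06, adjusted p = 0.000563), but the 2 other probe sets of Cacnb4 changed by 0.03 and -0.12 and were not called. For Cacnb4 the iSPN arrays spanned 10.38 to 11.09 (median 10.91) after mock lesion, 10.89 to 11.33 (11.21) after lesion, 10.85 to 11.17 (10.96) after the low dose and 10.94 to 11.18 (11.08) after the high dose. In iSPN Cacnb4 rose with the lesion, by 0.33 (SE 0.07, adjusted p = 0.000443), with overlapping groups, and there the other probe sets changed by 0.16 and 0.22 without being called. Cacnb2 was not called for lesion or levodopa in either line.

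Cacng3, a TARP of forebrain neurons, was called in 5 of the 6 comparisons of lesion and levodopa, the most of any channel gene, and its dose effects had opposite signs in the lines. The dSPN arrays of Cacng3 ranged from 9.96 to 10.72 (median 10.38) after mock lesion, from 9.33 to 10.60 (10.02) after lesion with saline, from 10.24 to 10.87 (10.72) with the low dose and from 10.59 to 10.96 (10.79) with the high dose. The lesioned saline arrays were the lowest dSPN group, and their highest array reached into the levodopa ranges. The lesion change was -0.52 (SE 0.12, adjusted p = 0.00530), the high-dose change was 0.89 (SE 0.12, adjusted p = 2.05e-09) (1.85-fold) and the low-dose change was 0.78 (SE 0.12, adjusted p = 6.93e-08). On iSPN arrays Cacng3 lay between 9.87 and 10.50 (median 10.25) with mock lesion, 9.82 and 10.18 (9.89) with lesion and saline, 8.64 and 10.07 (9.13) at the low dose and 8.61 and 9.94 (8.99) at the high dose. In iSPN the levodopa groups were the lowest, though 1 array of each reached into the saline range. Cacng3 changed there by -0.87 (SE 0.14, adjusted p = 1.27e-05) with the high dose and -0.74 (SE 0.14, adjusted p = 0.000419) with the low dose. The gene is read by 1 probe set, so no second reading was at hand.

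Cacng4, a TARP with wide expression, fell with the lesion and rose with levodopa in dSPN by its representative probe set. With its second probe set, of mean 9.07, the lesion change in dSPN was not called. In dSPN the log2 values of Cacng4 were 8.61 to 9.23 (median 8.98) for mock, 7.91 to 9.18 (8.68) for lesion with saline, 8.50 to 9.40 (8.81) for the low dose and 8.68 to 9.33 (9.03) for the high dose. The groups overlapped, with a lesion change of -0.42 (SE 0.12, adjusted p = 0.0398), a high-dose change of 0.49 (SE 0.12, adjusted p = 0.000413) and a low-dose change of 0.38 (SE 0.12, adjusted p = 0.00775). Values of Cacng4 in iSPN ran from 8.61 to 9.65 (median 9.28) in mock-lesioned mice, 9.07 to 9.33 (9.26) in lesioned saline mice, 9.26 to 9.94 (9.61) in low-dose mice and 9.06 to 9.99 (9.35) in high-dose mice. In iSPN Cacng4 was not called for lesion or levodopa. The other TARP of this kind that passed the test in dSPN was Cacng2 (stargazin), at 0.40 (SE 0.11, adjusted p = 0.00235) with the low dose and 0.20 (SE 0.11, adjusted p = 0.126) with the high dose.

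**Figure D3:**
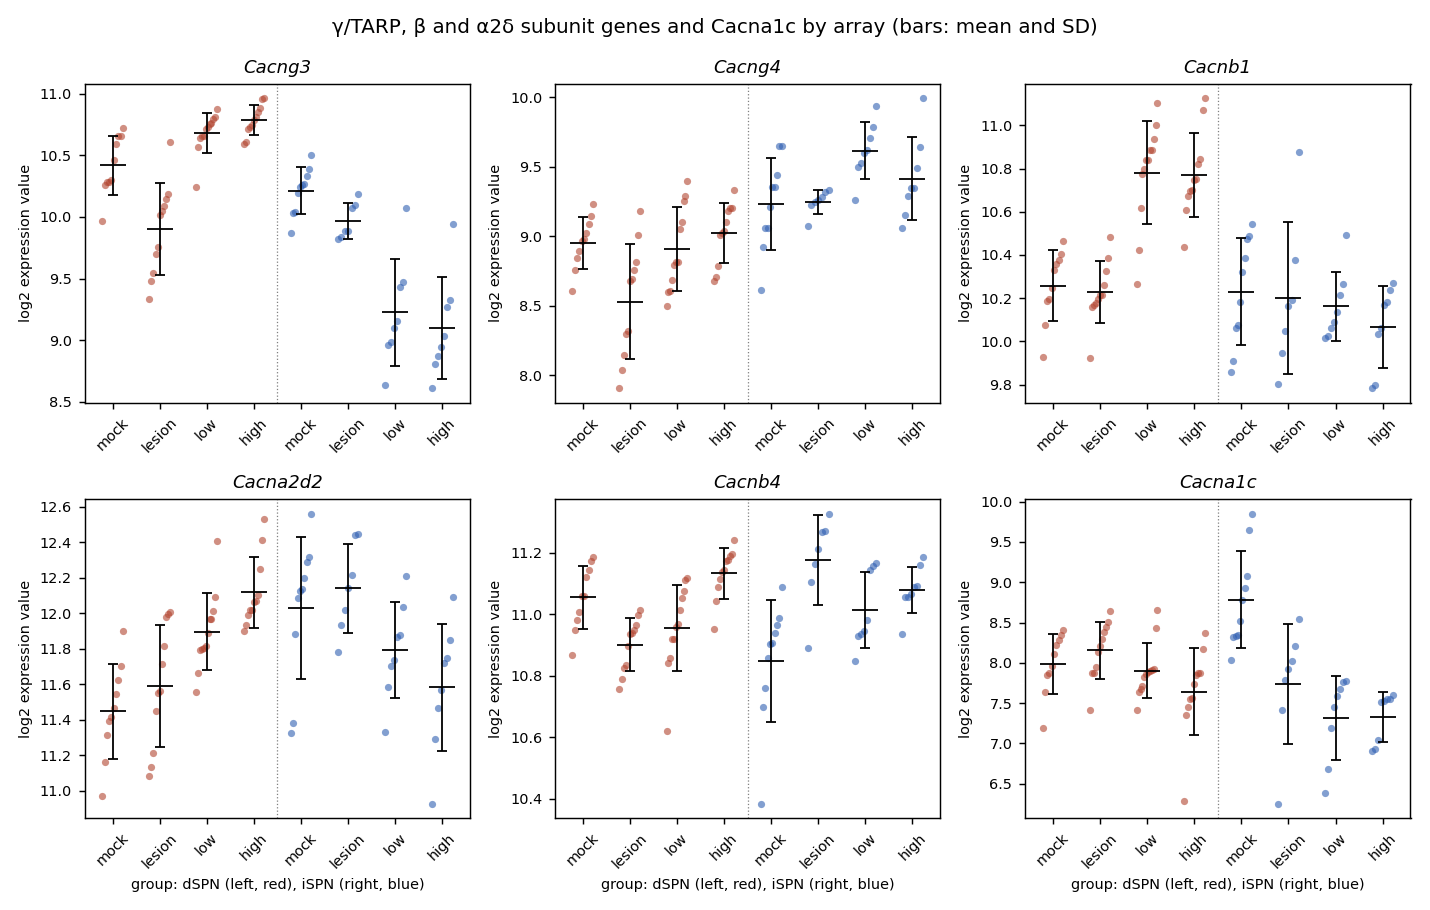
Log2 expression value (y axis) of 5 accessory subunit genes and Cacna1c on every array by group (x axis: mock with saline, lesion with saline, low dose, high dose; dSPN red, iSPN blue). Points are arrays, and bars give the mean and SD; Cacng3 has a mean of 10.78 in high-dose dSPN against 9.90 after lesion, and 9.10 in high-dose iSPN against 9.97.

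Cacng5, Cacng6 and Cacng8 were each called in 1 of the same 6 comparisons. Cacng5, a TARP of the second type, changed by -1.42 (SE 0.27, adjusted p = 1.31e-05) with the high dose in dSPN, where its means were 4.12 with the high dose and 5.54 with saline. Its second probe set fell by 0.78 and was called too. Cacng6, a muscle-type γ gene with a mean near the filter, changed by 0.31 (SE 0.11, adjusted p = 0.0129) in the same comparison, and its second probe set rose by 0.90. Cacng8, a TARP known from hippocampus, changed by -0.86 (SE 0.27, adjusted p = 0.0291) with the high dose in iSPN, while its other probe set changed by -0.16 and was not called. Cacng7 was not called for lesion or levodopa in either line.

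**Figure D4:**
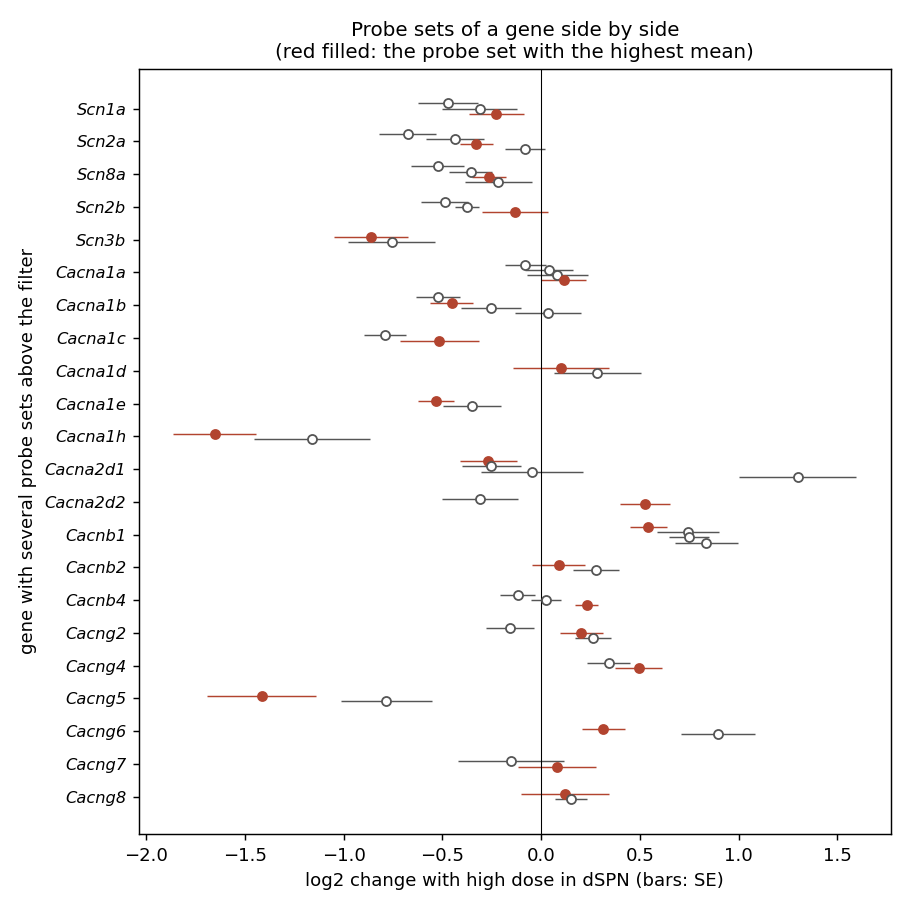
Log2 change with high-dose levodopa in dSPN (x axis, bars: SE) of every probe set above the filter for the 22 channel genes with several such probe sets (y axis). Red filled points are the probe set that represents the gene and open points the others; the Cacnb1 points lie together at 0.54 to 0.84, while the Cacna2d2 points lie at 0.53 and -0.31.

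As genes that moved in dSPN, the start regions of Scn4b (lower), Cacnb1 (higher) and Cacng5 (lower) are shown, from 250 bases before to 50 bases after the RefSeq transcript start, from GRCm38.p6 and on the gene's own strand. RefSeq windows were found for 27 of the 35 genes (37 windows). Capitals mark the letters searched on both strands: TGACGTCA (the cyclic AMP response element), TGANTCA (the AP-1 element of Fos and Jun proteins), GGGCGG (the GC box) and TATAAA (the TATA box). In the windows shown, Scn4b held none of the 4, Cacnb1 held 5 GC boxes, and Cacng5 held 1 AP-1 match and 2 GC boxes. A further window of Cacnb1 and one of Cacng5, not shown, held none of the 4.
Scn4b (chr9:45138374-45138673, + strand): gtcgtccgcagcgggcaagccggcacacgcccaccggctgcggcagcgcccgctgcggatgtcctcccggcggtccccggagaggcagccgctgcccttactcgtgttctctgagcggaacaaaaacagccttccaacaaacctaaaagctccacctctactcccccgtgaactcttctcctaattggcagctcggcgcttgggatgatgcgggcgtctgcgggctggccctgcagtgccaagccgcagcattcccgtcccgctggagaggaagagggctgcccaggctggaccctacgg
Cacnb1 (chr11:98022578-98022877, - strand): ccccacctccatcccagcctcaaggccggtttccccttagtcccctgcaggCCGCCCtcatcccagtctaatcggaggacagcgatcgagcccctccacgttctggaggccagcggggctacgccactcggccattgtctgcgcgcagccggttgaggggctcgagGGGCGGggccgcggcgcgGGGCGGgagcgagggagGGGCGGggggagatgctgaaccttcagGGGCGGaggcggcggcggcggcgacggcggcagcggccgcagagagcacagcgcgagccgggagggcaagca
Cacng5 (chr11:107915006-107915305, - strand): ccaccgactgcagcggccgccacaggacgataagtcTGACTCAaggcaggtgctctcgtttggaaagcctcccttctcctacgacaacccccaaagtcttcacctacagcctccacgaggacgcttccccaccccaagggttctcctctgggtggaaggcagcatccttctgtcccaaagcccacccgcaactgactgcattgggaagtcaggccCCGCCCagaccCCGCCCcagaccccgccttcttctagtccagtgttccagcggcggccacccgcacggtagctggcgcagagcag

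Of all 32851 mouse windows, 1.79% held the cyclic AMP response element, 7.81% the AP-1 element, 35.7% the GC box and 13.6% the TATA box. Among the 37 channel gene windows the counts were 0, 1, 14 and 2. A match is a run of letters, and was not tested as a binding site.

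Low-dose levodopa in dSPN called 14 of 30 channel genes, 5 higher and 9 lower, beside 34.1% of all genes (15.1% higher and 19.0% lower). The median change was -0.22, against -0.04 over all genes. The higher genes were Cacng3, Cacnb1, Cacng2, Cacng4 and Cacna2d2, and the lower ones were Scn1a, Scn2a, Scn8a, Scn3b, Scn4b, Cacna1b, Cacna1e, Cacna1h and Cacna2d1. Of the uncalled genes, which lay between -0.54 and 0.21, the largest sizes were those of Cacng5 (-0.54, SE 0.27, adjusted p = 0.117), Cacna1d (-0.27, SE 0.24, adjusted p = 0.405) and Cacna1c (-0.25, SE 0.20, adjusted p = 0.346). Uncalled genes of the high-dose comparison lay between -0.27 and 0.20, led by Cacna2d1 (-0.27, SE 0.14, adjusted p = 0.123), Scn1a (-0.23, SE 0.14, adjusted p = 0.187) and Cacng2 (0.20, SE 0.11, adjusted p = 0.126).

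Title runs bear on these counts. Run as a fixed block left the high dose in dSPN with 15 channel genes called, beside 41.8% of all genes. In run 2, which alone holds both groups, with 9 high-dose and 6 lesioned saline arrays, 13 channel genes were called, 12 of them among the 15. There 39.4% of all genes were called. Cacna1c (-0.54, adjusted p = 0.104), Cacng4 (0.35, 0.0734) and Cacng6 (0.34, 0.117) were not called there. In that run Scn4b changed by -0.90, Cacna1h by -1.81, Cacna1e by -0.52, Cacnb1 by 0.54 and Cacng3 by 0.79, close to the values over all arrays. No run holds both low-dose and lesioned saline dSPN arrays. Blocking on run, the low dose in dSPN called 7 channel genes, beside 13.9% of all genes. The 7 stood at -0.58 for Scn4b, -1.08 for Cacna1h, -0.81 for Cacna1e, -0.55 for Cacna1b, -0.46 for Scn2a, -0.38 for Scn8a and 0.63 for Cacng3. Scn3b (-0.47, adjusted p = 0.336), Cacna2d1 (-0.41, 0.261), Scn1a (-0.25, 0.533), Cacna2d2 (0.33, 0.303), Cacng4 (0.34, 0.255), Cacng2 (0.26, 0.353) and Cacnb1 (0.41, 0.0560) were not called with that block.

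Markers of glia moved with levodopa in dSPN. Of 10 oligodendrocyte markers tested (12 listed), 9 fell with each dose, beside 25.5% (high) and 19.0% (low) of all genes. The median changes of these markers were -1.29 (high) and -1.17 (low). The mean of these markers per array ranged from 7.20 to 8.42 in lesioned saline, 6.02 to 7.21 in low-dose and 6.00 to 7.23 in high-dose dSPN arrays. Of 11 astrocyte markers tested (12 listed), 7 fell with the high dose and 5 with the low dose, and their mean per array ranged from 6.42 to 6.89, 5.33 to 6.45 and 5.25 to 6.45 in the same groups. In iSPN 0 oligodendrocyte markers and 1 astrocyte marker fell with the high dose, and 0 of either with the low dose, beside 3.59% and 1.77% of all genes. With the mean of the oligodendrocyte markers as a covariate, the high dose in dSPN called 9 channel genes, beside 32.9% of all genes. Without the covariate the share of all genes was 45.6%. Scn4b (-0.83), Scn3b (-0.83), Cacna1h (-1.37), Cacna1e (-0.42), Cacng5 (-1.39), Cacng3 (0.88), Cacng4 (0.58), Cacnb1 (0.45) and Cacna2d2 (0.68) were called. Scn2a (-0.19, adjusted p = 0.170), Scn8a (-0.16, 0.288), Cacna1b (-0.33, 0.0702), Cacna1c (-0.33, 0.372), Cacnb4 (0.17, 0.0710) and Cacng6 (0.26, 0.169) were not. With the mean of the astrocyte markers in its place, 11 of the 15 genes were called for the high dose, all but Scn2a (-0.19, adjusted p = 0.134), Scn8a (-0.21, 0.121), Cacna1c (-0.28, 0.408) and Cacng6 (0.26, 0.119). Of all genes, 34.4% were called with the astrocyte covariate. For the low dose in dSPN 12 channel genes were called with the oligodendrocyte covariate, 11 of them among the 14, and 10 with the astrocyte covariate, all among the 14. The shares of all genes called were 22.9% and 22.7% with these covariates, against 34.1% without. Scn1a, Scn3b and Scn8a were not called with either covariate, and Cacna2d2 was not with the astrocyte one.

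The other marker lists were counted in the same way. Over all genes in dSPN, 20.1% rose and 25.5% fell with the high dose, and 15.1% and 19.0% with the low dose. With the high dose in dSPN, 2 of 7 oligodendrocyte precursor, 1 of 8 microglia and 1 of 7 GABA interneuron markers fell, and none of 4 cholinergic interneuron, 4 endothelial and mural or 2 cortical pyramidal markers was called. Of 5 dopaminergic terminal markers 2 rose and 1 fell. Among 9 dSPN markers 2 rose and 4 fell, and 5 of 6 iSPN markers fell and 1 rose, with a median of -0.75. With the low dose in dSPN 5 of 6 iSPN markers fell, with a median of -0.88, and 2 dSPN markers rose and 2 fell. There 3 of 7 oligodendrocyte precursor, 1 of 8 microglia and 1 of 4 endothelial and mural markers fell. Of 5 dopaminergic terminal markers 2 rose, and no GABA interneuron, cholinergic interneuron or cortical pyramidal marker was called.

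Partners and regulators of the channels, a list of 46 genes of which 39 were tested, were described in the same way. With the high dose in dSPN 9 rose and 19 fell, beside 45.6% of all genes called, with a median of -0.39 against -0.04 over all genes. With the low dose 7 rose and 16 fell, beside 34.1% of all genes, with a median of -0.26 against -0.04. Stac2, an adaptor of L-type channels, rose by 2.11 (SE 0.32, adjusted p = 5.15e-08) with the high dose. Cabp1, a calmodulin-like calcium sensor, rose by 1.27 (SE 0.18, adjusted p = 1.45e-08), and Rrad, a small GTPase that restrains calcium channels, by 0.96 (SE 0.17, adjusted p = 4.06e-06). Among the lower genes were Fgf11, a factor that binds sodium channels inside the cell, at -1.16 (SE 0.13, adjusted p = 5.24e-12), and Ank3, ankyrin-G, which gathers sodium channels at the axon initial segment, at -0.88 (SE 0.14, adjusted p = 1.27e-07). Nedd4l, a ubiquitin ligase that acts on sodium channels, stood at -0.90 (SE 0.08, adjusted p = 3.15e-15). The calcium release channel Ryr1 and the AMPA receptor partner Cnih3 stood at -0.94 (SE 0.32, adjusted p = 0.0127) and -0.88 (SE 0.30, adjusted p = 0.0113).

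The low dose in dSPN gave 1.51 (SE 0.31, adjusted p = 6.63e-05) for Stac2, 0.79 (SE 0.18, adjusted p = 0.000266) for Cabp1 and -0.74 (SE 0.13, adjusted p = 5.74e-06) for Ank3. Rem2, a GTPase of the same kind as Rrad, stood at 0.70 (SE 0.07, adjusted p = 3.67e-14). Nedd4l stood at -0.67 (SE 0.08, adjusted p = 1.84e-10) and Ryr1 at -1.02 (SE 0.32, adjusted p = 0.00794). In iSPN 2 partners rose and 0 fell with the high dose, Stac2 (1.50, SE 0.39, adjusted p = 0.00587) and the calcium sensor Ncs1 (0.23, SE 0.08, adjusted p = 0.0441). The low dose in iSPN called Stac2 (1.48, SE 0.39, adjusted p = 0.0135), the spectrin Sptbn4 (-1.01, SE 0.24, adjusted p = 0.00589) and the calcium pump Atp2b1 (-0.25, SE 0.07, adjusted p = 0.0320).

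In iSPN levodopa called few channel genes, and none rose. The high dose called 4 of 30, all lower (Cacng3, Cacng8, Cacna2d2 and Cacna1e), beside 9.86% of all genes (6.27% higher and 3.59% lower). With their second probe sets Cacng8, Cacna2d2 and Cacna1e were not called, and Cacng3 has no other probe set. The low dose called 3 of 30, all lower (Cacng3, Cacna1e and Scn2a), beside 4.18% of all genes (2.41% higher and 1.77% lower). Median changes were -0.10 and -0.16, against 0.01 and 0.00 over all genes. Uncalled genes lay between -0.41 and 0.80 with the high dose, led by Cacng1 (0.80, SE 0.28, adjusted p = 0.0560), Cacna1c (-0.41, SE 0.24, adjusted p = 0.326) and Scn1a (-0.40, SE 0.17, adjusted p = 0.130). With the low dose they lay between -0.62 and 0.45, led by Scn3b (-0.62, SE 0.23, adjusted p = 0.112), Cacng1 (0.45, SE 0.28, adjusted p = 0.429) and Cacna1c (-0.42, SE 0.24, adjusted p = 0.380).

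When run was blocked, the high dose in iSPN called 1 channel gene, Cacng3 (-0.80, adjusted p = 0.0206), and Cacna1e (-0.45, 0.130), Cacna2d2 (-0.47, 0.310) and Cacng8 (-1.30, 0.0545) were not called. The run block called 1.88% of all genes for the high dose and 3.54% for the low dose. The low dose kept Cacng3 (-0.77, adjusted p = 0.00417) and Cacna1e (-0.56, 0.00925) with that block, and Scn2a (-0.33, 0.123) was not called. Within run 6 (8 high-dose and 2 lesioned saline arrays) Cacng3 changed by -0.75, and within run 7 (8 low-dose and 4 lesioned saline arrays) by -0.77. No channel gene was called within either run, where at most 4 saline arrays were compared. Calls covered 0.46% of all genes within run 6 and 0.0301% within run 7.

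Whether levodopa acted differently in the 2 lines was tested by an interaction term (dSPN effect minus iSPN effect). For the high dose 9 of 30 channel genes were called, 5 with a positive and 4 with a negative difference, beside 25% of all genes. The differences were 1.75 (SE 0.19, adjusted p = 4.53e-12) for Cacng3, 1.08 (SE 0.20, adjusted p = 1.15e-05) for Cacna2d2 and -1.68 (SE 0.33, adjusted p = 5.18e-05) for Cacna1h. They were -0.77 (SE 0.10, adjusted p = 8.67e-09) for Scn4b, 0.68 (SE 0.15, adjusted p = 0.000201) for Cacnb1 and 0.33 (SE 0.09, adjusted p = 0.00393) for Cacnb4. Scn3b, Cacng5 and Cacng8 followed at -0.97 (SE 0.30, adjusted p = 0.0103), -1.37 (SE 0.43, adjusted p = 0.0127) and 0.98 (SE 0.35, adjusted p = 0.0311). With the gene's second probe set the difference for Cacna2d2 was -0.21 and was not called. With second probe sets throughout, where a gene had one, 5 of the 9 differences were called again. Of these 5, Cacng3 and Scn4b have no other probe set and kept their values. Uncalled differences lay between -0.91 and 0.49, led by Cacng1 (-0.91, SE 0.37, adjusted p = 0.0580), Cacna1d (0.49, SE 0.38, adjusted p = 0.382) and Cacna2d1 (-0.41, SE 0.23, adjusted p = 0.196).

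**Figure D5:**
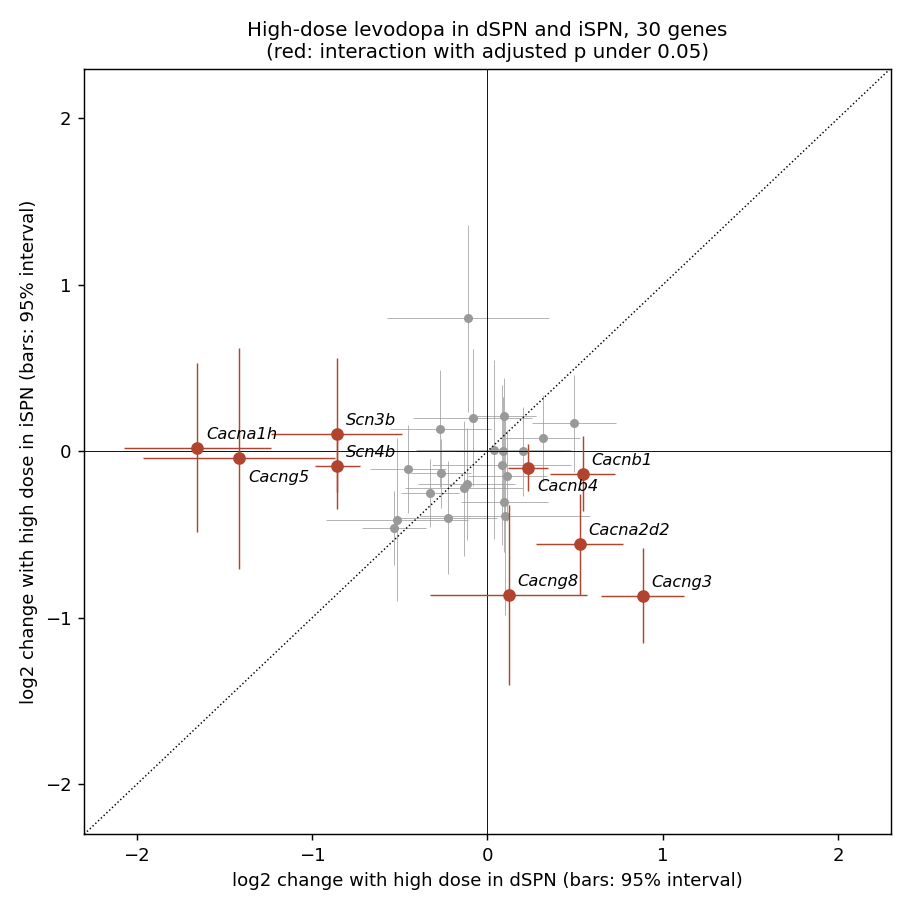
Log2 change with high-dose levodopa against lesion with saline in dSPN (x axis) and in iSPN (y axis) for the 30 channel genes, with 95% intervals as bars and the line of equal change dotted. Red points are the 9 genes called for the difference between the lines; Cacng3 lies at 0.89 in dSPN and -0.87 in iSPN, and Cacna1h at -1.65 and 0.02.

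For the low dose 6 of 30 channel genes were called, beside 14.8% of all genes. These were Cacng3 at 1.53 (SE 0.18, adjusted p = 9.33e-10), Cacna2d2 at 0.65 (SE 0.20, adjusted p = 0.0144) and Cacnb1 at 0.59 (SE 0.14, adjusted p = 0.00216). Cacng2 stood at 0.51 (SE 0.17, adjusted p = 0.0326), Scn4b at -0.51 (SE 0.10, adjusted p = 0.000136) and Cacna1h at -0.93 (SE 0.33, adjusted p = 0.0432). Second probe sets, where a gene had one, left 4 of the 6 called. Of these 4, Cacng3 and Scn4b have no other probe set and kept their values. Uncalled differences lay between -0.95 and 0.43, led by Cacng5 (-0.95, SE 0.43, adjusted p = 0.133), Cacng1 (-0.69, SE 0.36, adjusted p = 0.213) and Cacng8 (0.43, SE 0.35, adjusted p = 0.469). The dose effect also differed between the lines for 4 of 10 oligodendrocyte markers with the high dose and 6 of 10 with the low dose, all more negative in dSPN. With these markers as a covariate 8 of the 9 channel genes were called for the high dose and 4 of the 6 for the low dose. The shares of all genes called with that covariate were 24.3% and 11.8%. Blocked by run, Cacng3 (1.40) and Scn4b (-0.52) were called for the low dose, and 7 channel genes for the high dose, with Cacng5 (-1.54, adjusted p = 0.0531) and Scn3b (-0.85, 0.140) no longer among them. With this block 5.3% (low dose) and 15.7% (high dose) of all genes were called.

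The doses were then compared with each other. In dSPN 4 of 30 channel genes differed between high and low dose, beside 6.80% of all genes. Cacng5 (-0.88, SE 0.27, adjusted p = 0.0306), Cacna1h (-0.63, SE 0.21, adjusted p = 0.0457) and Scn4b (-0.25, SE 0.06, adjusted p = 0.00703) were lower with the high dose, and Cacnb4 (0.18, SE 0.06, adjusted p = 0.0387) was higher. Uncalled genes lay between -0.31 and 0.38, led by Cacna1d, Scn3b and Cacng7 at 0.38 (SE 0.24, adjusted p = 0.401), -0.31 (SE 0.18, adjusted p = 0.351) and 0.30 (SE 0.19, adjusted p = 0.405). None of the 4 was called with run as a fixed block, at -0.61 for Cacng5, -0.61 for Cacna1h, -0.29 for Scn4b and 0.22 for Cacnb4. The share of all genes called with that block was 1.31%. Run 3 holds 11 low-dose and 2 high-dose dSPN arrays. The values within it were -0.49, -0.33, -0.22 and 0.27, none called, beside 0.0527% of all genes. Leaving out the dSPN array that stood furthest from its group, a low-dose one, and 1 mock-lesioned iSPN array left 2 channel genes called. This setting called 6.34% of all genes.

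In iSPN limma called 0 of 30 channel genes between the doses, beside 0.173% of all genes, and 3 had an unadjusted p under 0.05. The changes lay between -0.53 and 0.73, with a median SE of 0.15 among the 30 genes. The largest were those of Scn3b (0.73, SE 0.22, adjusted p = 0.150), Cacng8 (-0.53, SE 0.26, adjusted p = 0.471) and Cacng5 (-0.45, SE 0.32, adjusted p = 0.655).

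Loss of dopamine on its own called few channel genes. In dSPN the lesion called 3 of 30, all lower and all of the γ group, beside 2.48% of all genes (0.640% higher and 1.84% lower). Besides Cacng3 and Cacng4 this was Cacng1, the γ subunit of the muscle channel, at -0.88 (SE 0.24, adjusted p = 0.0241). For Cacng1 the dSPN arrays spanned 5.74 to 7.46 (median 6.41) after mock lesion, 4.76 to 6.96 (5.30) after lesion, 4.77 to 5.81 (5.34) after the low dose and 4.94 to 5.88 (5.45) after the high dose. The groups overlapped. Uncalled genes lay between -0.39 and 0.27, led by Scn3a (-0.39, SE 0.13, adjusted p = 0.0852), Cacng8 (-0.34, SE 0.23, adjusted p = 0.594) and Cacna1a (-0.32, SE 0.12, adjusted p = 0.137). Run 1 holds 4 mock-lesioned and 5 lesioned saline arrays, and there Cacng1 (-0.55), Cacng3 (-0.46) and Cacng4 (-0.51) were not called. Under the run block they stood at -0.75 (adjusted p = 0.440), -0.41 (0.358) and -0.33 (0.575), and none was called. Calls covered 0.0527% of all genes within run 1 and 0.663% under the block. Of the 3 genes, Cacng1 and Cacng3 have no other probe set, and Cacng4 was not called with its second probe set.

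In iSPN the lesion called 3 of 30, beside 6.20% of all genes (3.19% higher and 3.01% lower). These were Cacna1c and Scn3b, lower, and Cacnb4, higher, with the values given above. Uncalled genes lay between -0.73 and 0.48, led by Cacng5 (-0.73, SE 0.32, adjusted p = 0.178), Cacna2d4 (0.48, SE 0.26, adjusted p = 0.306) and Scn1a (0.47, SE 0.16, adjusted p = 0.0731). Under the run block Cacna1c (-0.94, adjusted p = 0.376), Scn3b (-0.58, 0.690) and Cacnb4 (0.39, 0.0669) were not called, and 0.799% of all genes were. Of the 10 mock-lesioned iSPN arrays 9 lie in run 5, which holds 1 lesioned saline array. Of 9 dSPN markers 4 fell with the lesion in iSPN, with a median of -0.49 against -0.01 over all genes, and their mean per array ranged from 6.85 to 7.80 with mock lesion and from 6.38 to 7.30 with lesion. Of the oligodendrocyte and astrocyte markers none was called there, and the same 3 channel genes were called with either as a covariate. The shares of all genes called were then 6.06% (oligodendrocyte) and 6.23% (astrocyte). In dSPN 1 astrocyte marker rose and no oligodendrocyte marker was called for the lesion, and of the 3 channel genes called there 1 was called with the astrocyte covariate and 3 with the oligodendrocyte one. Beside them 1.86% and 2.14% of all genes were called in dSPN with these covariates. The part of the dSPN markers in the iSPN values was not tested.

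Of the 39 partners 3 were called for the lesion in dSPN, beside 2.48% of all genes, where 2 rose (Fam155a, 0.62, SE 0.14, adjusted p = 0.00403, and Ncs1, 0.30 (SE 0.06, adjusted p = 0.00176)) and 1 fell (Gsg1l, -0.55, SE 0.15, adjusted p = 0.0184). Fam155a belongs to the sodium leak channel complex, and Gsg1l is an AMPA receptor partner. In iSPN 7 of 39 were called, beside 6.20% of all genes, and 3 rose, Rims1 of the presynaptic active zone (0.54, SE 0.13, adjusted p = 0.00441), Rem2 (0.46, SE 0.08, adjusted p = 1.77e-05) and Fgf12 (0.36, SE 0.08, adjusted p = 0.00180). There 4 fell, Ryr1 (-1.24, SE 0.37, adjusted p = 0.0301), Fgf11 (-0.92, SE 0.15, adjusted p = 7.39e-06), Unc80 (-0.58, SE 0.18, adjusted p = 0.0425) and Fam155a (-0.55, SE 0.16, adjusted p = 0.0237).

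The lesion effect itself differed between the lines for 2 of 30 channel genes, beside 4.86% of all genes. The difference was 1.22 (SE 0.31, adjusted p = 0.00877) for Cacna1c, which changed by 0.17 in dSPN and fell by 1.04 in iSPN. It was -0.48 (SE 0.09, adjusted p = 9.47e-05) for Cacnb4. The other differences lay between -0.89 and 0.87, led by Cacng1 (-0.89, SE 0.36, adjusted p = 0.154), Cacng5 (0.87, SE 0.42, adjusted p = 0.277) and Scn1a (-0.67, SE 0.22, adjusted p = 0.0566). With run as a fixed block Cacna1c was not called (1.27, adjusted p = 0.235) and Cacnb4 was (-0.49, 0.0482), beside 1.12% of all genes.

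Levodopa-treated mice were also set against mock-lesioned mice, to see where the channel genes stood after both lesion and drug. In dSPN the high dose differed from mock for 14 of 30 channel genes, 4 higher and 10 lower, beside 43.4% of all genes. The 5 lower sodium channel genes were Scn1a (-0.43, SE 0.14, adjusted p = 0.0120), Scn2a (-0.46, SE 0.09, adjusted p = 8.19e-06), Scn8a (-0.55, SE 0.09, adjusted p = 1.88e-07), Scn3b (-1.06, SE 0.19, adjusted p = 4.56e-06) and Scn4b (-0.99, SE 0.07, adjusted p = 3.51e-21). All high-dose arrays lay below all mock arrays for Scn4b, Scn3b, Scn8a and Cacna1h. Cacna1h was 3.66-fold lower, at -1.87 (SE 0.22, adjusted p = 2.27e-11). Cacng5, Cacng1, Cacna1e and Cacna1b were lower by changes of -1.27, -0.99, -0.66 and -0.35. Cacna2d2, Cacnb1, Cacng6 and Cacng3 were higher, by 0.67, 0.52, 0.46 and 0.37. The second probe set of Cacna2d2 had the opposite sign here, with its value given below. Cacng4, lower after the lesion, stood at 0.07 (SE 0.12, adjusted p = 0.674). The largest uncalled changes were those of Cacna1c (-0.34), Cacng7 (0.34) and Scn3a (-0.30). In the same comparison 9 of 10 oligodendrocyte markers (median -0.95) and 4 of 11 astrocyte markers were lower, beside 25% of all genes. With the oligodendrocyte covariate 12 of the 14 channel genes were called. That covariate left 35.5% of all genes called.

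In iSPN the high dose differed from mock for 13 of 30 channel genes, 3 higher and 10 lower, beside 18.7% of all genes. Cacna1c was 2.74-fold lower, at -1.45 (SE 0.22, adjusted p = 8.06e-07), and no high-dose array reached the mock range. Cacng3 followed at -1.11 (SE 0.13, adjusted p = 6.82e-10) and Scn4b at -0.29 (SE 0.07, adjusted p = 0.00270), the latter also without overlap. Also lower were Cacng8 (-0.90), Scn3b (-0.61), Cacna2d2 (-0.45), Cacna1e (-0.40), Cacna1b (-0.36), Scn8a (-0.32) and Scn2a (-0.25), and Cacng1 (0.81), Cacna2d1 (0.55) and Cacnb4 (0.23) were higher. Cacng5 (-0.77), Cacna1d (-0.62) and Cacna2d4 (0.49) gave the largest uncalled changes. In this comparison 8 of 10 oligodendrocyte markers (median -0.71) were lower, beside 8.27% of all genes lower and 10.4% higher. Of 9 dSPN markers (median -0.80) 6 were lower and 2 were higher. With the oligodendrocyte covariate 5 channel genes were called, beside 11.5% of all genes. These were Cacna1c (-1.34), Cacng3 (-1.11), Cacng8 (-1.10), Cacna1e (-0.34) and Scn4b (-0.27). The part of the dSPN markers was not tested here. The run block left 12 channel genes called in dSPN and 1 in iSPN, Cacng3 (-1.06, adjusted p = 0.00663). It called 29.5% of all genes in dSPN and 2.22% in iSPN.

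Between the lines themselves, on mock-lesioned mice, 10 of 30 channel genes differed, beside 22.5% of all genes. Higher in dSPN were Cacna2d1 (0.69, SE 0.15, adjusted p = 0.000371), Cacna1a (0.38, SE 0.12, adjusted p = 0.0146), Scn2a (0.35, SE 0.09, adjusted p = 0.00167) and Cacnb4 (0.21, SE 0.06, adjusted p = 0.00809). Higher in iSPN were Cacna1c (-0.80, SE 0.21, adjusted p = 0.00330) and Cacna1d (-0.77, SE 0.26, adjusted p = 0.0204), both L-type pores, and Cacna2d2 (-0.58, SE 0.13, adjusted p = 0.000534). Cacna1b, Cacna1e and Scn4b were also higher in iSPN, with dSPN minus iSPN at -0.39 (SE 0.11, adjusted p = 0.00726), -0.31 (SE 0.10, adjusted p = 0.0123) and -0.26 (SE 0.07, adjusted p = 0.00291). All 10 had overlapping groups. The largest uncalled differences were those of Cacng1 (0.42), Cacng5 (0.40) and Cacna2d4 (0.29). With the mean of each gene's probe sets 4 of the channel genes were called, beside 22.8% of all genes. With the second probe set 2 were, beside 19.3%, where Scn4b, which has no other probe set, kept its value. Lower in dSPN were 8 of 10 oligodendrocyte, 3 of 11 astrocyte, 3 of 7 precursor and 3 of 8 microglia markers. So were 4 of 4 cholinergic and 2 of 7 GABA interneuron markers, beside 10.9% of all genes. Of 5 dopaminergic terminal markers 1 was higher and 2 were lower. The cholinergic markers had means of 4.17 in dSPN and 5.26 in iSPN, and their part was not tested. The means of the oligodendrocyte markers differed between the groups, at 7.48 in dSPN and 8.37 in iSPN. With these as a covariate 4 of the 10 were called, Cacna2d1, Cacna2d2, Scn2a and Scn4b, beside 12% of all genes.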

How the data were processed

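Of 77 Affymetrix mouse arrays, the deposited log2 expression values of 45101 probe sets were used, which the authors made with RMA and the affy package, per the submitters' processing notes. RMA corrects background, equalises the arrays' distributions and summarises probes, so a change shared by most genes cannot be seen. Neither scanner files nor detection calls entered the work, and precision is limited by how many arrays there are. Probe sets with several (932) or no (9211) gene symbols were left out, and all 35 channel genes matched the mouse gene table (GRCm38.p6) by Entrez identifier. limma 3.58.1 (R 4.3.3; lmFit and eBayes) was fitted to 8 group means over all 77 arrays (69 residual degrees of freedom), with two-sided tests and Benjamini-Hochberg adjustment over 13271 genes for each of 14 comparisons. The procedure was tested on simulated data.

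The genes, the 12 lists (channel partners and regulators, and markers of dSPN, iSPN, astrocytes, oligodendrocytes and their precursors, microglia, GABA and cholinergic interneurons, endothelial and mural cells, dopaminergic terminals and cortical pyramidal neurons) and the tests were chosen with earlier results of these data known. All called channel genes are named, up to 3 uncalled ones per comparison by size, and values in every group go to the 12 genes called in the most of the 6 lesion and levodopa comparisons. Partners are named by size of called change, up to 8 per comparison. Scn8a and Scn2b values of further probe sets, and the group values of Cacng1, were added after their values were seen. The alternatives were title run as a fixed or random block or held constant, each line on its own arrays, array weights, other filters and probe sets, trend and robust eBayes, equal array medians and glial marker covariates.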

Additional observations from a re-analysis of the deposited data

Results flagged for a closer look

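Outlying arrays were looked for in 60 sets of values, a gene in a group of 7 to 10 arrays, where chance flags about 1 in 20. In 2 of them the lowest array stood apart from the rest. Cacng4 was 9.07 on 1 lesioned saline iSPN array, with the nearest at 9.22 and the highest at 9.33. Scn2a was 9.52 on 1 mock-lesioned iSPN array, with the nearest at 9.85 and the highest at 10.16.

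The other results were picked out because an effect differed between dSPN and iSPN by the interaction test, given as dSPN minus iSPN. For the lesion these were Cacna1c at 1.22 (adjusted p = 0.00877) and Cacnb4 at -0.48 (adjusted p = 9.47e-05). For the high dose they were Cacng3 at 1.75, Cacna2d2 at 1.08, Cacng8 at 0.98, Cacnb1 at 0.68, Cacnb4 at 0.33, Scn4b at -0.77, Scn3b at -0.97, Cacng5 at -1.37 and Cacna1h at -1.68, with adjusted p from 4.53e-12 (Cacng3) to 0.0311 (Cacng8). For the low dose they were Cacng3 at 1.53, Cacna2d2 at 0.65, Cacnb1 at 0.59, Cacng2 at 0.51, Scn4b at -0.51 and Cacna1h at -0.93, with adjusted p from 9.33e-10 (Cacng3) to 0.0432 (Cacna1h).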

How the results depend on the processing

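The 100 called results were recomputed under the alternatives, where 1145 values were again called, 252 had the same direction without a call and 31 had the opposite sign. No sign changed with the block, the covariates, the weights, the filters or the arrays left out. No paired analysis was possible because the labels give no replicate numbers shared between groups and pair no animals. Line and run cannot be told apart, so the fixed block was not run for mock-lesioned dSPN against iSPN.

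With run as a fixed block 48 of 90 called values were called again. The number of channel genes called is given here with the share of all genes called in brackets. It became 0 for the lesion in dSPN (0.663%) and iSPN (0.799%), 1 for the high dose in iSPN (1.88%) and 7 for the low dose in dSPN (13.9%). It became 0 for high against low dose in dSPN (1.31%) and 1 for the high dose against mock in iSPN (2.22%). Between lines it became 1 for the lesion effect (1.12%) and 2 for the low-dose effect (5.3%). Within a single run it was 0 for the lesion in dSPN (0.0527%), for the high (0.46%) and low dose (0.0301%) in iSPN and, in run 3, for high against low dose in dSPN (0.0527%). In runs 5 and 6 with run as a block it was 0 for the lesion in iSPN (0.105%). These last 2 settings, and leaving out the array furthest apart in each line (2 for high against low dose in dSPN, beside 6.34% of all genes), were chosen after seeing the data. With run as a random block 1 was called for high against low dose in iSPN (1.19%). Each line on its own arrays gave 5 for the lesion in dSPN (4.17%), 2 for the high dose in iSPN (4.35%) and 6 for the high dose against mock in iSPN (11.3%). Array weights gave 8 for the lesion in dSPN (5.85%) and 4 for the lesion effect between lines (5.18%). The latter became 4 with the stricter filter, the 60th percentile (7.27%), and 5 with equal array medians (5.43%). It became 6 with the mean of the probe sets (5.76%) and 1 with the second probe set (4.14%). In the latter setting, genes with a single probe set kept it. The second probe set gave 2 for the high dose in iSPN (7.9%), for high against low dose in dSPN (5.33%) and for dSPN against iSPN (19.3%). For the last, the mean of the probe sets gave 4 (22.8%) and the oligodendrocyte covariate 4 (12%). That covariate gave 9 for the high dose in dSPN (32.9%) and 5 for the high dose against mock in iSPN (11.5%).

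All opposite signs came from other probe sets. In dSPN with the high dose, Cacna2d2 was -0.31, Cacnb4 -0.12 and Cacna1b 0.035. With the low dose Cacna2d2 was -0.48 with its second probe set and -0.088 with the mean of its probe sets, Cacna2d1 was 0.81 and, in iSPN, Scn2a 0.015. Between the doses in dSPN Cacnb4 was -0.034. Against mock, Cacna2d2 was -0.63 and Cacna1b 0.018 or 0.033 in dSPN, and Cacng8 0.021 in iSPN. For the line difference in the effect Cacna2d2 was -0.21 with the high dose and -0.33 with the low dose. Between the lines Cacna1d was 0.057, Cacna1e 0.13, Cacnb4 -0.011 or -0.17 and Scn2a -0.23. The cause was not tested.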

Other observations

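By role, the median change of the 5 sodium channel α genes tested was -0.23 with the high dose and -0.23 with the low dose in dSPN, and -0.25 and -0.33 in iSPN. The 7 calcium α1 genes had medians of -0.45 and -0.27 in dSPN and -0.15 and -0.28 in iSPN. The 3 calcium β genes had medians of 0.23 and 0.21 in dSPN and -0.10 and -0.13 in iSPN. For the 8 γ genes the medians were 0.16 and 0.09 in dSPN and -0.02 and 0.00 in iSPN, with single genes from -1.42 to 0.89 in dSPN with the high dose.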
